A study of Mus musculus with 10 samples.

Results

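Regulatory T (Treg) cells and conventional CD4+ T (Tconv) cells of the same mutant mouse line were compared by microarray, using 5 of the 10 arrays of the series. These were all the arrays of Il2ramut/mut lymph node T cells, 3 of Treg cells and 2 of Tconv cells, and the comparison covered the 65956 transcript probe sets among the 72688 probe sets of the deposited table. Il2ramut/mut mice were on the C57BL/6 background and carried a point mutation in Il2ra (which encodes CD25, the alpha chain of the receptor for IL-2) that exchanges a tyrosine for a histidine. All mice, including the wild type (WT) mice that gave the other 5 arrays (3 of Treg and 2 of Tconv cells), were naive females of 6 to 8 weeks with a homozygous red fluorescent protein reporter of Foxp3, and 50000 reporter-positive Treg or reporter-negative Tconv cells were sorted for each array. According to the study's methods, the Tconv gate took naive cells that were low in CD44 and without CD25, while Treg cells were not divided by activation. Cell lineage and activation state therefore cannot be told apart in this comparison, and Il2ra and Cd44, which were used in the gate, are no findings. The mutation arose in a Ccr2-deficient colony, and according to the study's methods the Il2ramut/mut line was bred with intact Ccr2.

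Treg cells restrain immune responses. They are set apart by the transcription factor Foxp3 and by constant display of CD25, which joins the beta chain (Il2rb) and the common gamma chain into the high-affinity receptor for IL-2. Binding of IL-2 activates the kinases JAK1 and JAK3 and then the transcription factor STAT5, and Treg cells depend on this signal because they make hardly any IL-2 of their own. Naive Tconv cells display little CD25 and are maintained largely by IL-7. The comparison asks how these cell types differed in mice whose CD25 is mutated.

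The genes near either end of the comparison are shown by promoters. They belong to the 3 highest and 3 lowest of the named genes that matched an entry in the RefSeq promoter table used here (GRCm38.p6), so that genes with larger differences, such as Ikzf2, Itgae and Pde3b, are not among them. Each sequence spans 300 bases, 250 before and 50 after the start of the gene, and capitals mark matches on either strand to TTCNNNGAA (the STAT motif), TGTTTAC (forkhead), TGTGGT (RUNX) or CTTTGAT (TCF and LEF). No promoter shown held more than 1 match.
Il2ra (chr2:11642542-11642841, plus strand): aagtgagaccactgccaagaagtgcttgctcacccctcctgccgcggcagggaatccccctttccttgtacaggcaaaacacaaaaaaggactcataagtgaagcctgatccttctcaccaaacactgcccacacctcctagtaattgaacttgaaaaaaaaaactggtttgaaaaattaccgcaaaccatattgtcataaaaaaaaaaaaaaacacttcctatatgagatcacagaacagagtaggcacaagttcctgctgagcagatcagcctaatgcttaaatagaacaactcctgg
Ccr4 (chr9:114496495-114496794, minus strand): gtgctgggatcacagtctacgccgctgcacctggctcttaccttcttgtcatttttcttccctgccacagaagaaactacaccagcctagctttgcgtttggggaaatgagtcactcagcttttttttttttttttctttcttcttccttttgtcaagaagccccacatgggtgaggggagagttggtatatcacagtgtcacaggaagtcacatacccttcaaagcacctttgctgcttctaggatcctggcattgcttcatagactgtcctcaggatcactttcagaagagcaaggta
Tigit (chr16:43664135-43664434, minus strand): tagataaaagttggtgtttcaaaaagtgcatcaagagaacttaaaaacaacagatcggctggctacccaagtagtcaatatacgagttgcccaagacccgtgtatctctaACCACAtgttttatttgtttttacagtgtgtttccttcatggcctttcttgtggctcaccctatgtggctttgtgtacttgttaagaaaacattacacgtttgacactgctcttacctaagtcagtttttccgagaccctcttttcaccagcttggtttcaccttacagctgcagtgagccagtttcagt
Atp8b4 (chr2:126491504-126491803, minus strand): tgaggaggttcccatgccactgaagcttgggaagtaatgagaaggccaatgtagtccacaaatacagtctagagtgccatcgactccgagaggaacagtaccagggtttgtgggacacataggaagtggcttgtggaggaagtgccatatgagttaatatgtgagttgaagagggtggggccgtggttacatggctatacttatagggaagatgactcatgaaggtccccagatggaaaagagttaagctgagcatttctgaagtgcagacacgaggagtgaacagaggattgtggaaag
Dapl1 (chr2:59484403-59484702, plus strand): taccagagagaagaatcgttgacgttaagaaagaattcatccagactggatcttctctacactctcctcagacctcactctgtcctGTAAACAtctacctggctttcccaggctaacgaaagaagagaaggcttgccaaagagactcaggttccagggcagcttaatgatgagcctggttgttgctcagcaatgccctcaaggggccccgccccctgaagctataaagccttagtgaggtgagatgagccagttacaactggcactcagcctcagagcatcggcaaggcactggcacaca
Mctp2 (chr7:72306546-72306845, minus strand): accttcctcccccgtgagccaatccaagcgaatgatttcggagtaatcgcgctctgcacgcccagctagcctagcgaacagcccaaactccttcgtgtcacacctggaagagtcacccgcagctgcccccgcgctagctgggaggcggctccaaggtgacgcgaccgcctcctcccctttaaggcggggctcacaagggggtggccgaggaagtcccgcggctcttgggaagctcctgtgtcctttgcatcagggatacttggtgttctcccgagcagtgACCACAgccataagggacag
Among 27025 promoters of this length, 8.47% held the STAT motif, 3.55% the forkhead motif, 16.9% the RUNX motif and 3.72% the TCF and LEF motif. Tigit and Mctp2 held 1 RUNX match each and Dapl1 held 1 forkhead match. The windows of Il2ra, Ccr4 and Atp8b4 held none of the 4 motifs, which says only that these letters are not in these windows.

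Treg cells of the mutant mice differed from their Tconv cells at 7483 probe sets in limma's test (Benjamini-Hochberg adjusted p under 0.05), which is 11.3% of those tested, with 3582 higher in Treg cells (5.43%) and 3901 lower (5.91%). Large differences lay on the side of the Treg cells. Of the calls, 1636 were at least 2-fold higher and 1316 at least 2-fold lower, 288 and 75 passed 8-fold, and 87 and 8 passed 32-fold. Counted once per gene over 30738 genes, 2366 genes were higher (7.7%) and 1589 were lower (5.17%). The median difference over all genes was -0.06 on the log2 scale. These shares are the reference for every mutant count of a gene list below. The lists were chosen with earlier results of these data known, so such counts describe the lists and are no test of them. Only 15426 of the 30738 genes were above background in a group, so the shares are a low reference for lists of expressed genes. Of probe sets above background on every array of Treg or Tconv cells, 11.5% were higher and 11.3% lower. The balance of higher and lower calls depended on the kind of probe set, with 2398 higher and 1602 lower among probe sets that name 1 gene, and 1015 higher and 2220 lower among those that name none. Under quantile normalization of the arrays, which moved the median difference over all probe sets from -0.08 to -0.01, the totals turned to 3968 higher and 3574 lower, while the probe sets without a gene name stayed mostly lower (1133 higher and 1965 lower). Probe sets that were not above background on any mutant array held 69 of the higher and 492 of the lower calls. The criterion in the study's methods was also applied to these 5 arrays. It asks for p no higher than 0.01 before adjustment and at least a 1.5-fold difference. The test was the methods' t-test, here the equal-variance form for a pair of groups. By this criterion 3149 probe sets passed, 4.77% of those tested. After Benjamini-Hochberg adjustment of the p-values of this test the count was 992. Without Tconv replicate 1 of the mutant, 4982 probe sets were called in place of 7483. Leaving out any 1 of the 5 mutant arrays reduced the count by the methods' criterion from 3149 to between 1551 and 1776, of which 0 passed after adjustment.

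Genes that define Treg cells formed the upper end of the comparison. All 18 measured genes of the Treg identity list were higher in mutant Treg cells, against 7.7% of all genes, with a median difference of 4.22 on the log2 scale. Among the 18 is Il2ra, whose difference was in part set by the CD25-negative gate of the Tconv cells. The paper reports little CD25 on the surface of mutant Treg cells, so this RNA difference does not give the surface level. Foxp3 and Nrp1 lie on probe sets that name several genes and are not reported. Ikzf2, which encodes the transcription factor Helios, gave log2 signals of 14.05, 13.90 and 14.19 on the 3 Treg arrays and 5.56 and 5.34 on the 2 Tconv arrays. The Tconv arrays sat just above their background bound (the 95th percentile of antigenomic control probe sets, 5.03 to 5.54 over the 5 mutant arrays), and the difference was 387-fold (log2 8.60 ± 0.12 SE, limma adjusted p = 6.79e-10). Ctla4, an inhibitory receptor through which Treg cells remove costimulatory ligands from antigen-presenting cells, stood at 14.87, 14.63 and 14.77 in Treg cells and at 7.02 and 7.34 in Tconv cells (191-fold, adjusted p = 2.89e-09). For Lrrc32, whose product GARP holds latent TGF-beta on the cell surface, Treg arrays read 11.56, 11.54 and 11.63 while both Tconv arrays were at or below background, so that Treg cells were at least 77.5-fold higher. Itgae, the integrin alpha E chain CD103 that binds epithelial cadherin, was 340-fold higher, Nt5e and Entpd1, the ectoenzymes CD73 and CD39 that together turn extracellular ATP into adenosine, were 58.4-fold and 20.4-fold higher, and the TNF receptor family members Tnfrsf4 (OX40) and Tnfrsf18 (GITR) were 79.4-fold and 10.6-fold higher. In each of these genes the Treg arrays lay far above the Tconv arrays with no overlap. Arrays did not overlap at 41.9% of all probe sets, so this alone says little with 3 arrays against 2. Other Treg genes differed less, and the smallest differences of the list were those of Plagl1 (1.68) and Tnfrsf9 (1.87).

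**Figure D1:**
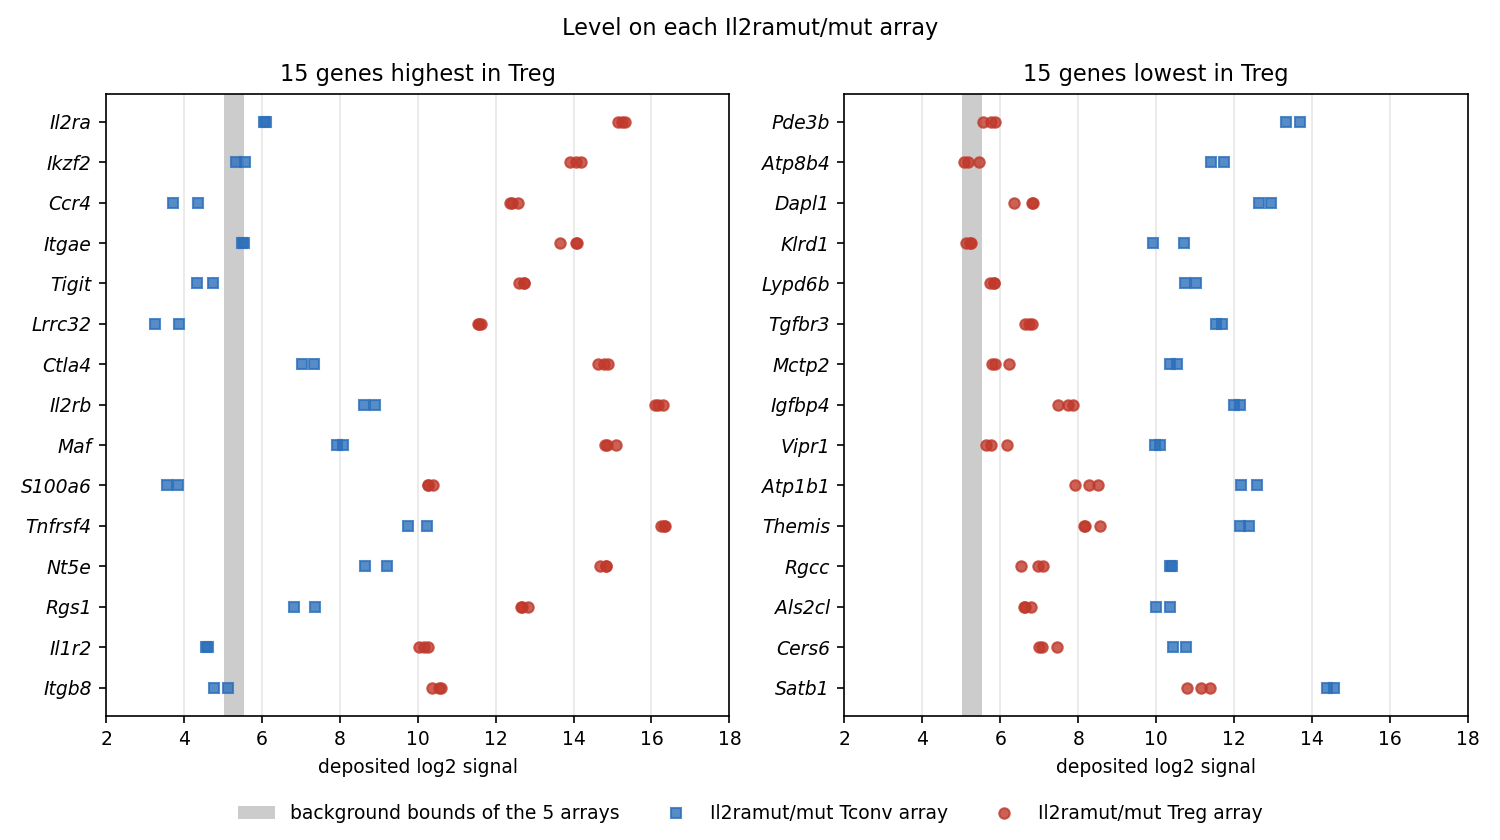
Deposited log2 signal (x axis) on each Il2ramut/mut Treg array (circles) and Tconv array (squares) for the 15 genes highest and the 15 lowest in Treg cells, with the grey band spanning the background bounds of the 5 arrays. These genes were chosen for the size of their difference, so the absence of overlap between Treg and Tconv arrays is no finding. The lower group often reaches the background band.

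The parts of the IL-2 receptor and its pathway were unequal. Il2ra, whose difference of 573-fold (log2 9.16) was in part set by the CD25-negative gate, stood at 15.31, 15.24 and 15.14 on the Treg arrays and at 6.04 and 6.09 on the Tconv arrays. Il2rb, the signaling beta chain that IL-2 shares with IL-15 and that was not part of the gate, read 16.16, 16.30 and 16.09 in Treg cells and 8.89 and 8.63 in Tconv cells. The chain was thus 171-fold higher in mutant Treg cells (log2 7.42 ± 0.12 SE, adjusted p = 1.79e-09). Cish, a feedback inhibitor that STAT5 induces, was nearly as distinct, with 12.09, 12.05 and 12.13 against 6.98 and 6.47 (41.1-fold, adjusted p = 1.43e-08). The related inhibitor Socs2 was 5.25-fold higher, Pim1, a kinase induced by cytokines, was 4.09-fold higher, and Socs1 was at least 1.81-fold higher. Differences in the transducers themselves were small. Stat5a and Stat5b were higher by 0.44 and 0.40 on the log2 scale (adjusted p = 0.0462 and 0.0468), calls that held in 9 and 7 of 20 alternatives. Both were lost without any 1 of the 5 mutant arrays, Stat5a also without WT Treg replicate 2 or 3 (adjusted p of 0.0524 to 0.186) and Stat5b also without either WT Tconv array or WT Treg replicate 2 (0.0521 to 0.168). Jak1 was lower by 0.44 (adjusted p = 0.00711, and 0.058 without Tconv replicate 2). Bcl2, a survival gene maintained by cytokines of this family, did not pass, with 12.72, 12.50 and 12.47 in Treg cells and 12.62 and 12.48 in Tconv cells (log2 difference 0.01 ± 0.12 SE, adjusted p = 0.964). In all, 14 of the 21 measured genes of the list were higher, 1 was lower (2 without Tconv replicate 1) and 6 did not pass, with a median difference of 0.61.

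Genes of activated or effector Treg cells were also high. Of 25 measured genes on that list, 23 were higher, 1 was lower and 1 did not pass, with a median of 4.12. Ccr4, a chemokine receptor of effector Treg and skin-homing T cells, and Tigit, an inhibitory receptor, were at or below background on both Tconv arrays and at 12.42, 12.37 and 12.57, and 12.59, 12.73 and 12.73, on the Treg arrays. Treg cells were at least 142-fold higher in Ccr4 and at least 166-fold higher in Tigit. Maf, a transcription factor of effector T cells that drives Il10, gave 14.86, 14.82 and 15.09 against 7.93 and 8.07 (121-fold, adjusted p = 2.89e-09), and Il10 itself, an anti-inflammatory cytokine, gave 8.58, 7.71 and 8.34 against 5.65 and 5.06 (7.23-fold, adjusted p = 9.34e-05). Only 1 of the 2 Tconv arrays was above background for Il10. Klrg1, an inhibitory receptor of terminally differentiated cells, was 36.5-fold higher, Icos, a costimulatory receptor, 16.3-fold, Prdm1, the gene of the transcription factor Blimp-1, 6.54-fold, and Fgl2, a secreted suppressor molecule, at least 18.4-fold. S100a6 and S100a4, small calcium-binding proteins of activated T cells, were at least 32.2-fold higher (both Tconv arrays at background) and 36.0-fold higher (1 of the 2 Tconv arrays above background). The exception was Prf1, which encodes the pore-forming protein perforin, with 5.21, 5.49 and 5.18 in Treg cells and 8.11 and 8.06 in Tconv cells (6.94-fold lower, adjusted p = 2e-05), with 1 Treg array above background. Granule genes in fact split, since Gzmb, the serine protease granzyme B, read 10.33, 10.26 and 10.27 in Treg cells and was at or below background in Tconv cells (at least 31.7-fold higher), and Nkg7, a granule membrane protein, was 15.3-fold higher. Among 10 measured granule genes 4 were higher and 1 was lower.

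Receptors that tune T cell activation followed the same side, with 19 of 26 measured costimulatory and inhibitory receptors higher and 2 lower (1 without either mutant Tconv array, mutant Treg replicate 2 or 3, or any WT Treg array), and 10 of 20 TNF receptor family members higher and 0 lower (1 lower without mutant Treg replicate 1). Cd80 and Cd86, ligands for CD28 and CTLA-4 that are best known from antigen-presenting cells, were among them. Cd80 stood at 9.64, 9.57 and 9.99 in Treg cells and 5.45 and 5.39 in Tconv cells (19.9-fold, adjusted p = 3.47e-08), and Cd86 was higher by 3.83 on the log2 scale. Pdcd1, the inhibitory receptor PD-1, was higher by 4.12, and Btla, another inhibitory receptor, was lower by 0.71. Tnfrsf1b, the TNF receptor 2 that supports growth of Treg cells, was 25.5-fold higher (13.04, 13.14 and 13.16 against 8.40 and 8.48), whereas Tnfrsf1a, the TNF receptor with a death domain, did not pass (-0.50, adjusted p = 0.12, and 0.0416 in a fit on the mutant arrays alone).

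**Figure D2:**
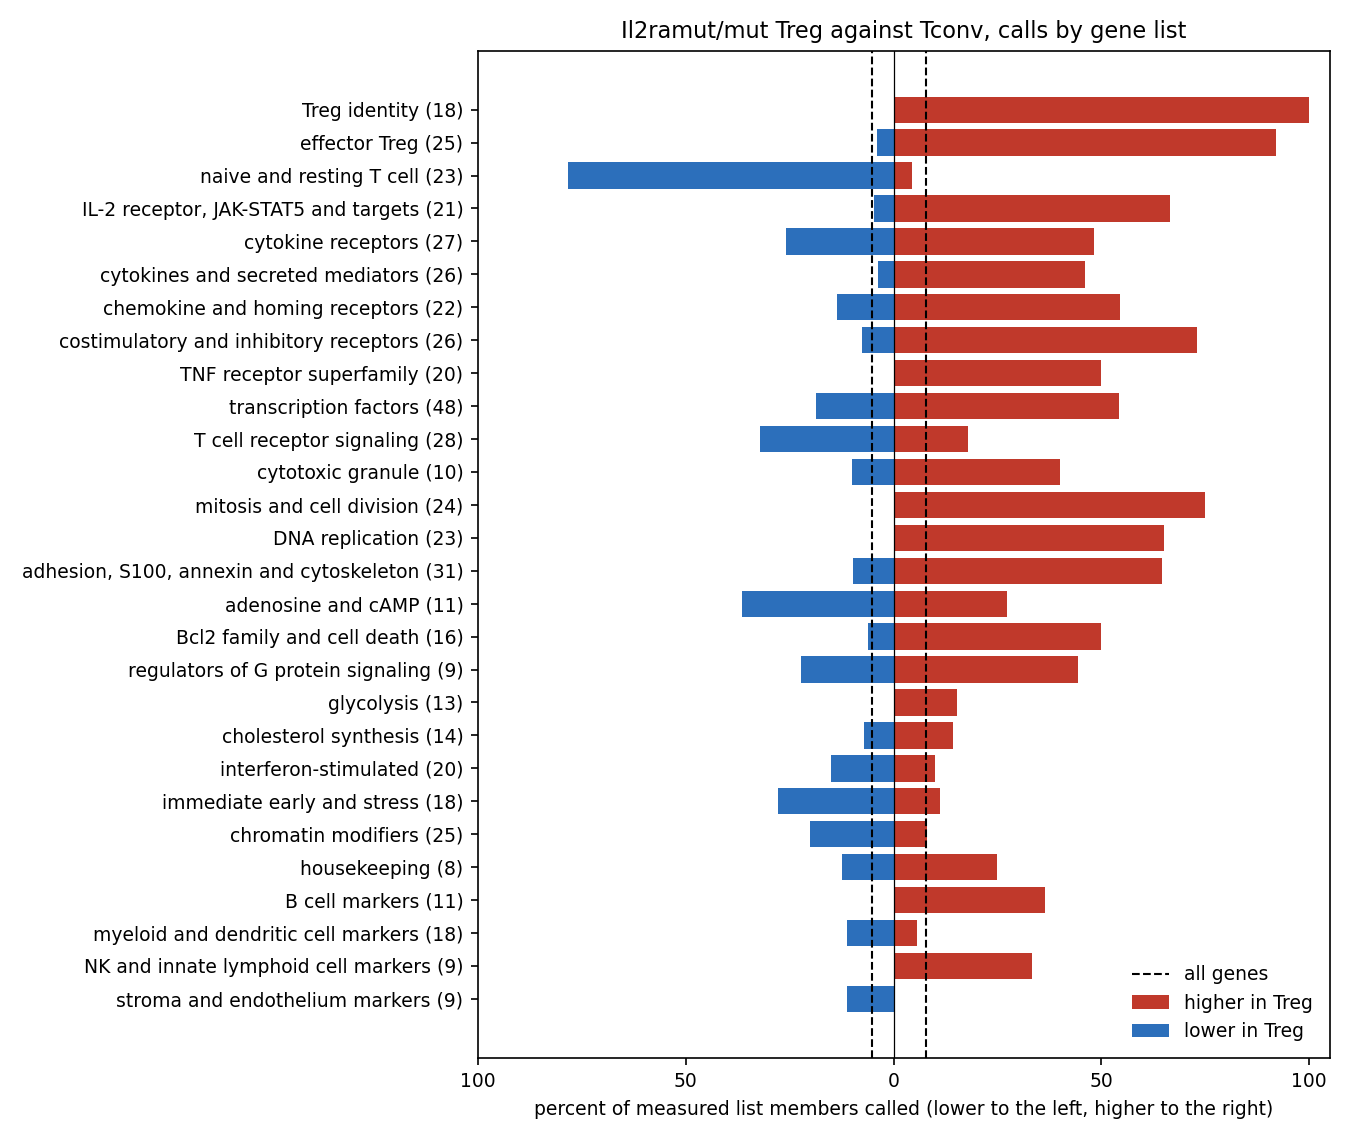
Percent of the measured members of each gene list (x axis, number measured in brackets) called higher in Il2ramut/mut Treg cells (to the right) or lower (to the left), with dashed lines at the shares of all genes, 7.7% and 5.17%. All 18 Treg identity genes and 23 of 25 effector genes lie to the right, and 18 of 23 naive and resting genes lie to the left.

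At the other end stood genes of naive and resting T cells, as sorted into the Tconv gate. Of 23 measured genes 18 were lower in Treg cells, against 5.17% of all genes, 1 was higher and 4 did not pass, with a median of -1.64. Pde3b, a phosphodiesterase that degrades cyclic AMP, showed the largest drop, with 13.34 and 13.68 on the Tconv arrays and 5.87, 5.55 and 5.77 on the Treg arrays. The difference was 220-fold (log2 -7.78 ± 0.18 SE, adjusted p = 8.62e-09), and the Treg arrays were close to background. Dapl1, a gene of naive T cells in mice, read 12.64 and 12.95 in Tconv cells and 6.83, 6.36 and 6.81 in Treg cells (69.9-fold lower). Tgfbr3, the coreceptor betaglycan that presents TGF-beta, was 29.7-fold lower and Igfbp4, a secreted binding protein of insulin-like growth factors, 20.7-fold lower. Receptors that keep naive cells in circulation were lower by less, namely Ccr7, which guides cells into lymph nodes (2.99-fold), S1pr1, which guides them out (3.12-fold), and Il7r, the IL-7 receptor alpha chain (2.39-fold, adjusted p = 0.00847, and 0.0725 without Tconv replicate 2). Id3, an inhibitor of E proteins, was the gene that went the other way, by 0.77 (adjusted p = 0.0491), and its call was lost without either mutant Tconv array, without any mutant Treg array, and without WT Treg replicate 2 or 3 (adjusted p of 0.0548 to 0.234).

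Several of the lowest genes belong to no such list. Atp8b4, a phospholipid flippase, read 11.41 and 11.73 in Tconv cells and 5.46, 5.17 and 5.07 in Treg cells, of which 1 array was above background (80.8-fold lower). Klrd1, which encodes CD94, a partner of NK receptors, was 34.8-fold lower, also with 1 Treg array above background, and Vipr1, a receptor of vasoactive intestinal peptide, 18.1-fold lower. Mctp2, Atp1b1, the beta subunit of the sodium pump, and Rgcc, a regulator of the cell cycle, were 22.5-fold, 17.6-fold and 11.5-fold lower. These genes were chosen for the size of their difference, so the absence of overlap between their arrays is no finding.

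Transcription factors went both ways, with 26 of 48 measured members higher and 9 lower. Higher in mutant Treg cells were Rora (34.2-fold), a nuclear receptor of several effector lineages, Ahr (27.4-fold), the receptor of aromatic hydrocarbons, Irf4 (18.6-fold), which is needed for effector Treg cells, and Ikzf4 (log2 4.31), which encodes Eos, a partner of Foxp3. Lower were Satb1, Lef1, Ikzf1 and Bach2. Satb1, a genome organizer that shapes chromatin in thymocytes, stood at 14.38 and 14.57 in Tconv cells and 11.38, 10.79 and 11.15 in Treg cells (10.3-fold lower, adjusted p = 1.42e-06). Lef1, a factor of naive T cells downstream of Wnt signals, was 8.02-fold lower and Bach2, a repressor of effector genes, was 3.00-fold lower. Ikzf1, which encodes Ikaros, was 3.6-fold lower, so members of the Ikaros family differed in opposite directions, since Ikzf2, Ikzf3 (0.87) and Ikzf4 were higher and Ikzf5 (0.14) did not pass. The orphan receptors Nr4a1, Nr4a2 and Nr4a3 and the factors Egr2 and Egr3, which T cell receptor signals induce, were all higher, by 0.76 to 2.21. Of 25 chromatin modifiers 5 were lower and 2 higher (1 without Tconv replicate 1), against 5.17% and 7.7% of all genes. All 25 were above background in a group. Of probe sets above background on every array of Treg or Tconv cells, 11.3% were lower and 11.5% higher. Beside Satb1, the lower chromatin modifiers included Tet1, an enzyme that oxidizes methylated cytosine (4.33-fold), and Scmh1, a Polycomb protein (2.42-fold).

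Of 27 measured cytokine receptors 13 were higher in mutant Treg cells and 7 lower, beside 7.7% and 5.17% of all genes. Il1r2, a decoy receptor that binds IL-1 without signaling, was at 10.03, 10.26 and 10.17 in Treg cells and at or below background in Tconv cells (at least 28.9-fold higher). Il10ra, the IL-10 receptor alpha chain, was 13.2-fold higher, and Il18r1, a chain of the IL-18 receptor, was higher by 2.14. The chains of the TGF-beta receptor went apart, Tgfbr1 being 4.35-fold higher and Tgfbr2 2.21-fold lower. Among secreted mediators 12 of 26 were higher, including Penk, the precursor of enkephalins (16.7-fold), and Tgfb1 (log2 1.53), and 1 was lower (2 without Tconv replicate 1), namely Cd40lg, the helper ligand CD154 (7.89-fold). Il2 itself was at or below background on all 5 arrays, as were Il17a, Il5 and Il13. Chemokine and homing receptors were higher for 12 of 22 members and lower for 3. Ccr2 (36.4-fold), Gpr15 (21.7-fold), which directs T cells to the colon, Ccr8 (17.5-fold), Ccr6 (at least 12.6-fold) and the follicle-homing receptor Cxcr5 (10.5-fold) joined Ccr4 among the higher ones. Ccr2, Cxcr5 and Penk were above background on 1 of the 2 Tconv arrays. Integrins and cytoskeletal genes gave 20 of 31 higher and 3 lower, led beside Itgae by Itgb8, the integrin chain that activates latent TGF-beta (at least 36.8-fold), and Itgb1 (22.9-fold), with Cnn3 (log2 -3.25), Actn1 (-3.19) and Itgb3 (-2.25) lower.

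Genes of dividing cells were higher in mutant Treg cells. Of 24 measured genes of mitosis and cell division, 18 were higher and 0 lower (median 0.78). Of 23 genes of DNA replication 15 were higher and 0 lower (median 0.73). The shares of all genes were 7.7% and 5.17%. Only 17 of the 24 mitosis genes and 21 of the 23 replication genes were above background in a group. On the mutant Tconv arrays 11 mitosis and 3 replication genes were above background on neither array. With dim probe sets left out, 14 of 17 mitosis and 15 of 21 replication genes were higher. Mki67, which encodes the proliferation antigen Ki-67, read 11.13, 10.38 and 10.71 in Treg cells and 5.91 and 6.24 in Tconv cells (25.3-fold, adjusted p = 1.58e-06). Top2a, the topoisomerase of dividing cells, read 8.82, 8.17 and 8.76 against 5.93 and 6.09 (5.96-fold), and Mcm6, a subunit of the replicative helicase, 11.65, 11.62 and 11.47 against 9.26 and 9.47 (4.64-fold). In these 3 genes every Treg array lay above both Tconv arrays. Since arrays did not overlap at 41.9% of all probe sets, this alone says little. Tyms, the thymidylate synthase, was 4.14-fold higher, and Rrm2, a subunit of ribonucleotide reductase, at least 2.32-fold. In bulk samples a larger share of dividing cells and more RNA per cell cannot be told apart. The count of mitosis genes fell to 11 without Tconv replicate 1, and a test against a fold of 1.5 left 5 mitosis and 4 replication genes.

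T cell receptor signaling held more genes lower than higher, with 9 of 28 lower and 5 higher, while its median difference was 0.09. Themis, a signaling adaptor best known from thymocyte selection, read 12.15 and 12.38 in Tconv cells and 8.56, 8.19 and 8.14 in Treg cells (15.7-fold lower, adjusted p = 2.97e-07), and Txk, a kinase of the Tec family, was lower by 3.06. Ubash3b, a phosphatase that dampens receptor signals, was higher by 1.80. The chains Cd3d, Cd3e and Cd3g did not pass (0.08, 0.22 and 0.09), and Cd4 was lower by 0.79. Regulators of G protein signaling included Rgs1 (49.6-fold higher) and Rgs16 (2.47, with 1 Tconv array above background), with 4 of 9 higher and 2 lower (1 without any of the 5 mutant arrays). Of 11 genes of adenosine and cyclic AMP metabolism 3 were higher and 4 lower, the latter 2 without Tconv replicate 2, and Pde3b and Nt5e stood at its ends. Of 16 Bcl2 family and cell death genes 8 were higher and 1 lower (0 without Tconv replicate 2, any mutant Treg array, either WT Tconv array or WT Treg replicate 2, and 2 without WT Treg replicate 3). The higher ones included Bcl2a1d (9.46-fold), a survival gene with near-identical copies that the probe set may not tell apart, and Bcl2l1, which encodes Bcl-xL (2.41-fold). Glycolysis (2 of 13 higher), cholesterol synthesis (2 of 14 higher and 1 lower), and interferon-stimulated genes (2 of 20 higher and 3 lower) held 5 or fewer calls each, beside 7.7% of all genes higher and 5.17% lower. Without Tconv replicate 2 the higher count of the latter 2 lists was 1, and the lower count of the cholesterol list was 0 without either Tconv array or without Treg replicate 1 or 2. In the WT the interferon list held 1 gene higher and 8 lower, beside 5.9% and 3.65% of all genes. Its median difference was -0.63 in the WT and -0.03 in the mutant, and 0 of its genes passed the test of the difference between genotypes. The antiviral synthases parted, Oas2 being 8.84-fold lower and Oas1a 3.52-fold higher, and Actb, the beta actin gene, did not pass (-0.02 ± 0.08 SE).

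The same comparison in WT mice, whose 5 arrays are not shared with it, called 5206 probe sets (7.89%), and 3967 were called in the same direction in both genotypes, which is 53.0% of the mutant calls and 76.2% of the WT calls. Opposite calls were found at 6 probe sets. The test of the difference between genotypes (the interaction) passed at 1 probe set, 0.00152% of those tested, with 4301 at an unadjusted p under 0.05, and the standard error of that difference was larger (median 0.19) than that of the mutant comparison (median 0.13). That probe set was Gzmb, in which the deposited signals of Treg cells exceeded those of Tconv cells by 5.44 in the mutant and by 2.16 in the WT on the log2 scale (interaction 3.28 ± 0.18 SE, adjusted p = 0.000681). Both mutant Tconv arrays and 1 of the 2 WT Tconv arrays were at or below background, so these sizes rest on levels that were not measured. With such signals raised to the background bound, an alternative chosen after seeing the data, the differences were 4.98 and 1.97 and the interaction was 3.02 ± 0.16 SE (adjusted p = 0.00012). Gzmb read 6.99, 7.27 and 7.17 on the WT Treg arrays, all of them below the 3 mutant Treg arrays, and 4.80 and 5.17 on the WT Tconv arrays. Over the other 18 alternatives that kept the gene the adjusted p of Gzmb lay between 0.000162 and 0.146, and it passed in all but the fit with a block for replicate number within genotype.

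**Figure D3:**
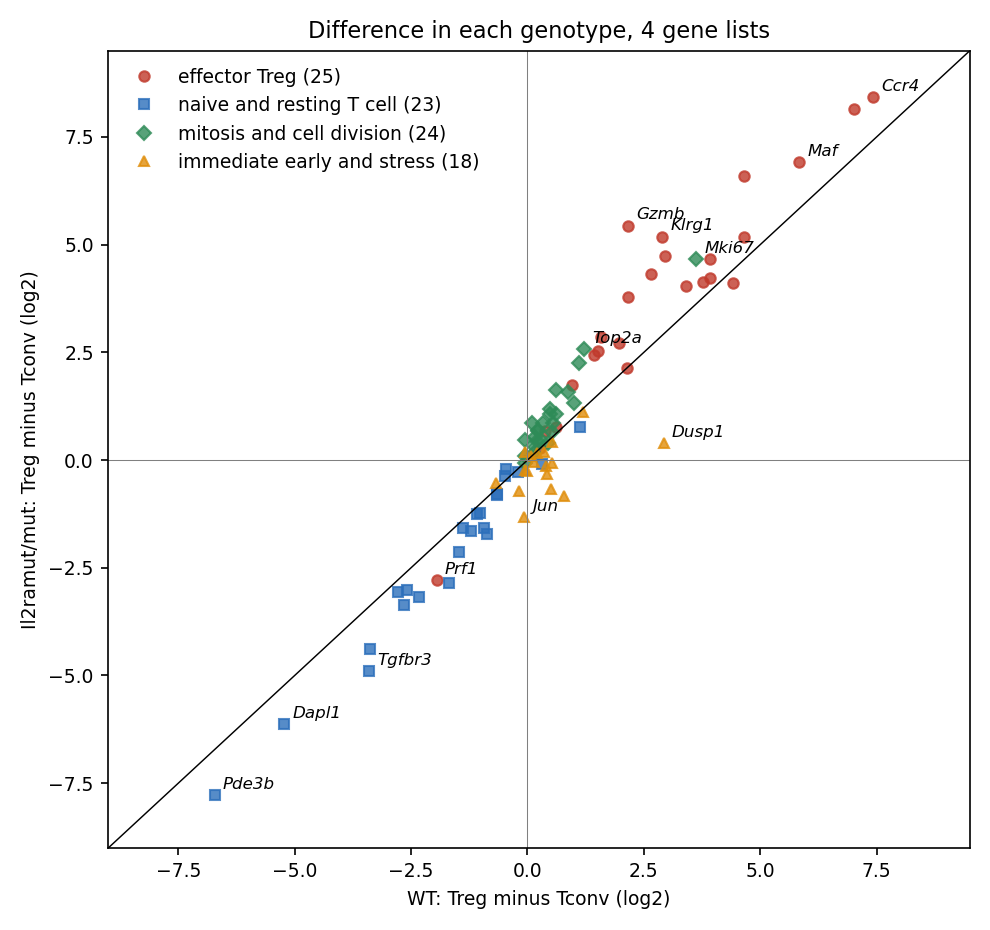
Treg minus Tconv difference (log2) in WT mice (x axis) and in Il2ramut/mut mice (y axis) for the measured genes of 4 lists, with the line of equality. Gzmb, at 2.16 and 5.44 (4.98 with Tconv signals at the background bound), is the point called in the interaction test, and Dusp1, at 2.92 and 0.39, lies on the other side of the line without passing it.

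Other differences between genotypes stayed below the threshold and are given as values. In the effector Treg list the median difference was 4.12 in the mutant and 2.65 in the WT, with 23 and 22 genes higher (5.9% of all genes were higher in the WT and 3.65% lower), and in the mitosis list it was 0.78 and 0.39, with 18 and 9 genes higher. Klrg1 differed by 5.19 and 2.89 (interaction adjusted p = 0.117) and Cd80 by 4.32 and 2.65 (interaction adjusted p = 0.0786). When the probe sets naming 1 gene were tested alone, 5 genes passed the interaction test, namely Gzmb, Cd80, Lamc1, a laminin chain, Itm2b, a membrane protein, and Car5b, a mitochondrial carbonic anhydrase (adjusted p of 0.000162 to 0.0432). Ccr2 differed by 5.18 and 3.45 (interaction adjusted p = 0.26). Cish showed hardly any difference between genotypes, with 5.36 in the mutant and 5.35 in the WT (interaction 0.01, adjusted p = 0.999).

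In the mutant 2 of 18 measured immediate early and stress genes were higher in Treg cells and 5 lower, beside 7.7% and 5.17% of all genes. In the WT 5 were higher and 1 lower, beside 5.9% and 3.65% of all genes. No gene of this list passed the interaction test. In the mutant the higher count was 1 without any of its 5 arrays, and the lower count was 3 without either Tconv array, Treg replicate 1 or Treg replicate 3. Dusp1, a phosphatase induced by stress and activation, read 11.22, 11.60 and 11.66 on the mutant Treg arrays and 11.15 and 11.06 on the mutant Tconv arrays, a difference that did not pass (0.39 ± 0.33 SE, adjusted p = 0.522). On the WT arrays it read 11.40, 11.16 and 11.17 in Treg cells and 9.03 and 7.61 in Tconv cells. The mutant Tconv arrays were thus near the level of the Treg arrays, and the WT Tconv arrays were low and far apart from each other. Jun, a subunit of the factor AP-1, was lower in mutant Treg cells, with 6.68, 6.65 and 6.78 against 7.98 and 8.09 (2.51-fold, adjusted p = 0.00141). The chemokine receptor Cxcr4 differed by 0.15 in the mutant and by 3.51 in the WT. No interaction passed for these 3 genes (adjusted p of 0.245 for Dusp1, 0.301 for Jun and 0.245 for Cxcr4).

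**Figure D4:**
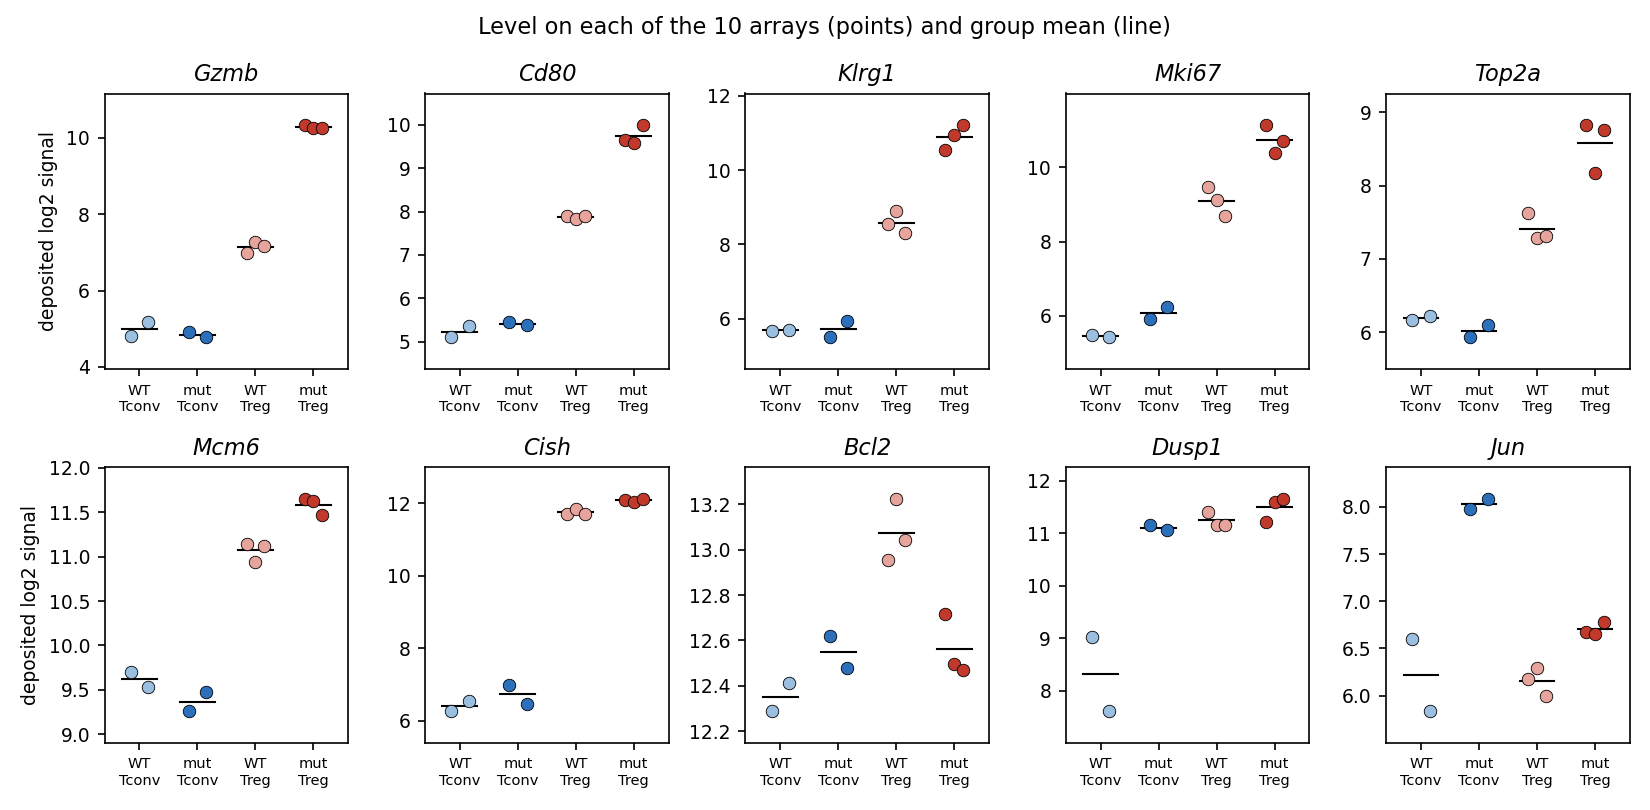
Deposited log2 signal on each of the 10 arrays (points) with the group mean (line) for 10 genes, each with its own y axis range. Gzmb, Cd80, Klrg1, Mki67, Top2a and Mcm6 are highest on the mutant Treg arrays. Cish lies close together in both Treg groups (11.71 to 12.13), and Bcl2 is highest on the WT Treg arrays (12.95 to 13.22). In Dusp1 and Jun the mutant Tconv arrays lie apart from the WT Tconv arrays. That comparison was not tested, and the interaction passed for neither gene.

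Markers of other cell types were mostly at background. Of 11 measured B cell markers 4 were higher in mutant Treg cells (Ighm by 1.20, Cd79b by 1.64, Cd22 by 0.82 and Bank1 by 0.61 on the log2 scale). Cd79a, Ms4a1, Pax5 and Ebf1 were at or below background on all 5 arrays. The mean log2 signal of the B cell list was 6.28 to 6.37 on the Treg arrays and 5.97 to 5.98 on the Tconv arrays. For 18 myeloid and dendritic cell markers the ranges were 5.34 to 5.44 and 5.36 to 5.36, with Cst3 higher, Cd68 and Itgam lower, and Csf1r and Adgre1 at background. The calls of Cd68 and Itgam were lost without either mutant Tconv array, that of Cd68 also without Treg replicate 1 or 2 (adjusted p of 0.0713 to 0.144) and that of Itgam also without Treg replicate 2 or 3 (0.0689 to 0.122), and the call of Bank1 was lost without Tconv replicate 1 (0.0729). For the 9 markers of NK and innate lymphoid cells the ranges were 5.39 to 5.66 and 4.97 to 4.995, Ncr1 was at background, and Klrb1c, Il23r and Il17rb, genes that T cells can also express, were higher. Of the 2 CD8 T cell markers, Cd8a was at background on all 5 arrays, and Cd8b1 read 9.69, 9.46 and 8.97 on the Treg arrays and 9.83 and 9.84 on the Tconv arrays (log2 difference -0.46, adjusted p = 0.344). Pecam1 was the 1 called gene of 9 stroma and endothelium markers (3.31-fold lower), with 2 called without Tconv replicate 2. The part of such cells in the results was not tested.

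Probe sets without a gene name reached similar sizes. TC0100002535.mm.1 read 13.53, 13.12 and 13.20 in Treg cells and 6.02 and 5.30 in Tconv cells (197-fold higher), and TC1300001177.mm.1 was at least 123-fold higher. At the lower end, TC0700001670.mm.1 was at or below background on the 3 Treg arrays and at 10.33 and 11.14 on the Tconv arrays (at least 43.4-fold lower), and TC0700001671.mm.1, above background on 2 of the 3 Treg arrays, was 55.6-fold lower. The identifier of the first follows directly on that of the Ikzf2 probe set, and the last 2 follow on that of Pde3b.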

How the data were processed

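RNA of sorted lymph node T cells was amplified with the GeneChip WT Pico kit and measured on Mouse Transcriptome Array 1.0 chips of Affymetrix, 1 array per sample. The deposited table of the authors holds log2 signals, already normalized with Affymetrix Expression Console 1.4.1.46 and Transcriptome Analysis Console 3.1.0.5 as named in the submitters' processing notes. The log base was inferred from the values. Neither the settings of the summarisation nor a genome build is stated in the sources used. Array medians lay between 4.97 and 5.13.

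The 6732 control probe sets were left out. A model with 4 group means was fitted to the 10 arrays with limma 3.58.1 (R 4.3.3) and empirical Bayes moderation (6 residual and 3.535 prior degrees of freedom), and the Benjamini-Hochberg adjustment covered all 65956 transcript probe sets, with a call at an adjusted p under 0.05. All adjusted p-values are from this fit unless another is named, and all tests are two-sided. The study describes the replicates as separate mice. Whether Treg and Tconv arrays of a genotype came from the same mice is not stated. The number of arrays limits the precision.

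Background was the 95th percentile of 23 antigenomic control probe sets on each array. Where every array of the lower group was at or below it, a fold is written "at least", and it compares the mean of the higher group with the mean background bound of the lower arrays. Gene names are those of the platform annotation, updated through RefSeq. A gene with several probe sets was represented by the one with the highest mean signal, and probe sets naming several genes were not named. Named genes are the 15 highest and 15 lowest called genes, members of gene lists, interaction calls and the 2 highest and 2 lowest probe sets without a gene name. The members and lists were chosen with earlier results of these data known.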

Additional observations from a re-analysis of the deposited data

Results flagged for a closer look

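Gzmb, the gene of granzyme B, stood out because the difference between Treg and Tconv cells was not the same in the 2 genotypes. From the deposited signals it was 5.44 on the log2 scale in Il2ramut/mut mice and 2.16 in WT mice, and the interaction was 3.28 (limma adjusted p = 0.000681). Both mutant Tconv arrays were at or below background, and with signals raised to the background bound the interaction was 3.02. All 3 mutant Treg arrays were above all 3 WT Treg arrays.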

How the results depend on the processing

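The 7483 calls in the mutant became 4733 when probe sets naming 1 gene were tested alone, 1914 in a test against a fold of 1.5 and 4651 with a block for replicate number within genotype. Leaving out 1 array gave 4982 to 7455. The 5206 calls in the WT became 1416 against a fold of 1.5 and 2850 with that block, and 3473 to 5172 when 1 array was left out. The interaction passed at 5 probe sets among those naming 1 gene, at 0 with the block within genotype (4266 at an unadjusted p under 0.05) and at 0 without chromosome 14, which holds Gzmb (4059). It passed at 6 probe sets, with Gzmb at an adjusted p of 0.00012, when signals were raised to the background bound and dim probe sets left out, which was chosen after seeing the data. Leaving out 1 array gave 1 to 3, with 3 without WT Tconv replicate 1 or mutant Tconv replicate 1 and 2 without mutant Treg replicate 1 or 2. The count by the methods' criterion was 1551 to 1776 when 1 mutant array was left out. Except where the alternative tests fewer features or fewer samples, the cause was not tested.

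Deviations of same-numbered Treg and Tconv arrays from their group means correlated at -0.04 and -0.05 in the mutant and at 0.06 and 0.07 in the WT, and the numbers were not taken to pair the samples, since no source says that they do. With the replicate number as a block the counts were 6527 in the mutant, 4309 in the WT and 1 for the interaction.

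Of 119 called genes named in the text, 102 kept their call in every alternative. Against a fold of 1.5 the calls of Btla, Cd4, Cd22, Egr3, Ikzf3, Jun, Klrb1c, Scmh1 and Socs1 were lost, as were those of the genes named above as lost without single arrays, and the counts fell in the lists of mitosis (from 18 to 5 genes), DNA replication (15 to 4), T cell receptor signaling (9 to 2 lower) and the IL-2 pathway (14 to 8 higher). Genes near 0 that were not called changed sign. With quantile normalization Actb was at 0.0355, Adgre1 at 0.0263, Csf1r at 0.0408, Il13 at 0.0397 and Il17a at 0.0181. Cxcr4 was at -0.159 with the replicate block and at -0.0357 with the block within genotype. When 1 mutant array was left out, Bcl2 ranged from -0.0659 to 0.0813, Cxcr4 from -0.212 to 0.518, Cd3d from -0.0262 to 0.186, Cd8a from -0.0644 to 0.183, Ms4a1 from -0.0556 to 0.108, Il13 from -0.136 to 0.0436 and Il17a from -0.201 to 0.105.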
